A study of Mus musculus with 12 samples.

Results

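The genes described here are 9 long noncoding RNA (lncRNA) genes, Malat1, Neat1, Gas5, Snhg1, Snhg3, Snhg6, Snhg8, Snhg12 and Kcnq1ot1. They were taken by name from the 49585 genes of each count file, through the Ensembl identifier of each row, and all 9 were present and had counts. RNA-seq was performed on hematopoietic stem cells (HSCs) that were sorted from the bone marrow of 6 wild-type (WT) mice and 6 Pon2-/- mice. The strain of both groups is given as C57BL/6J and the age as 10-14 weeks, and no mouse was treated. Pon2-/- mice carried a gene trap with β-geo between loxP sites in intron 2 of Pon2, the gene of the antioxidative enzyme paraoxonase 2, in all cells of the body. The sorted cells were Lin-, Sca1+, ckit+, CD135- and CD150+, a gate that the labels name long-term HSCs (LT-HSCs), while the study's methods describe its cells as LT-HSCs mixed with MPP2 progenitors. From each mouse 8 wells with 10 cells each were collected, and 1 count file per mouse was analysed. The WT mice came from a breeder, and nothing in the sources used here says that the groups were littermates.

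Malat1 and Neat1 are neighbouring nuclear RNAs. Malat1 gathers in nuclear speckles, the stores of splicing factors, and Neat1 is the scaffold of paraspeckles, nuclear bodies that form around its long isoform. Gas5 and the Snhg genes are hosts of small nucleolar RNAs (snoRNAs): the snoRNAs are cut from the introns and guide the modification of ribosomal RNA, while the spliced host RNA has little coding capacity and is commonly removed by nonsense-mediated decay when it is translated. Gas5 and several other hosts start with a run of pyrimidines (the 5′ TOP motif), as the mRNAs of the translation machinery do. Kcnq1ot1 is an unspliced RNA that starts within the gene Kcnq1, runs in the opposite direction, is made from the paternal chromosome and silences neighbouring imprinted genes, among them the cell cycle inhibitor Cdkn1c.

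The sequences around the start sites are shown because the pyrimidine run and the TATA box can be read from them. RefSeq start sites (GRCm38.p6) were matched for 7 of the 9 members, with 8 entries. The windows run from 40 bases before the start to 20 bases from it. Capitals mark TATA where it lies 40 to 21 bases before the start, and the unbroken run of pyrimidines that begins at the start.
Gas5, second entry, chr1:161035126-161035185, + strand: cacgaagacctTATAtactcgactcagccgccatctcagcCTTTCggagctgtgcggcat
Snhg8, chr3:123508317-123508376, - strand: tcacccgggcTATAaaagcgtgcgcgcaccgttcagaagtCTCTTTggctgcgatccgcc
Snhg12, chr4:132308638-132308697, + strand: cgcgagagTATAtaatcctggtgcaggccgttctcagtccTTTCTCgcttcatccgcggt
Snhg1, chr19:8723447-8723506, + strand: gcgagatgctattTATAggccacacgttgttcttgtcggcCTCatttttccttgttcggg
Malat1, chr19:5802653-5802712, - strand: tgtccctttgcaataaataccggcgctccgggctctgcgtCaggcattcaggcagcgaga

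TATA stood in this position in 4 of the 8 entries, all of snoRNA hosts (Gas5, Snhg1, Snhg8 and Snhg12), and in 5.34% of 32851 promoters of the same table searched on the transcribed strand. A start at C with at least 4 pyrimidines was found for Gas5 and Snhg8, and in 3.76% of promoters. Both features together occurred in 0.201% of promoters. The first entry of Gas5 and the windows of Malat1, Snhg3 and Kcnq1ot1 held neither.

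Smart-seq2 primes cDNA synthesis with oligo-dT. The 3′ region of Malat1 is shown because mature Malat1 ends without a poly(A) tail, at a genome-encoded run of A followed by a tRNA-like RNA that is cut off.
Malat1, bases 6644 to 6705 of the 6983-base transcript: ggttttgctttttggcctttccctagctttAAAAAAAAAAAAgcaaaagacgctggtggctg
The run marked in capitals is 12 bases long, and it is the only run of at least 10 A in Malat1. The longest transcript of Snhg12 held 1 such run and Kcnq1ot1 held 10, with up to 41 A. None was found in Neat1, Gas5, Snhg1, Snhg3, Snhg6 or Snhg8.

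The snoRNAs are shown because the files hold almost no reads for them. Inside the 6 hosts the annotation (GENCODE M21, GRCm38) lists 27 snoRNA entries on the host's strand, of which 26 had 0 counts in all 12 samples. Of these entries 25 share bases with an exon of some host transcript, and all 25 had 0 counts. Snord87, in an intron of Snhg6, was the exception with 319 counts over the 12 samples. Snora73b in Snhg3 also lies outside the exons of its host, and it had 0 counts. The cause of the 0 counts was not tested. Capitals mark TGATGA, the C box, and CTGA, the D box.
Snord87, in Snhg6, chr1:9942463-9942549, - strand: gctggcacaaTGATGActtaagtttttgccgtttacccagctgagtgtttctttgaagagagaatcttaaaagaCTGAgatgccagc
Snord47, in Gas5, chr1:161038082-161038158, + strand: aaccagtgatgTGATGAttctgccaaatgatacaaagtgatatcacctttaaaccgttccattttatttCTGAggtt
Snord99, in Snhg12, chr4:132310691-132310764, + strand: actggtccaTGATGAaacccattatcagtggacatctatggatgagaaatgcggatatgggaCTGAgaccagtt

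The libraries held between 12967791 and 24228280 counts on genes. Levels are given as CPM, counts per 1000000 counts of the library after TMM scaling. Pon2, the targeted gene, lay at 56.4 to 202 CPM in WT and at 1.16 to 33.1 CPM in Pon2-/- (log2 fold change -2.13 ± 0.57 SE, edgeR adjusted p = 0.586). The 7 HSC markers reported here, among them Kit and Hlf, summed to 1586-1981 CPM in WT and 1637-2001 CPM in Pon2-/-. The 14 markers listed for gated-out or other cells summed to 116-332 CPM and 200-587 CPM, with Cd48 included, on which the gate did not select. Cd3e and Cdh5 of that list had 0 counts in every sample. The part of other cells in the lncRNA values was not tested. The mice differed in a way the labels do not give: 7 samples (3 WT, 4 Pon2-/-) had 171 to 408 CPM on Y-linked genes (Eif2s3y and Uty highest) and at most 1.17 CPM of Xist, and 5 samples (3 WT, 2 Pon2-/-) had at most 0.0403 CPM on Y-linked genes and 461 to 938 CPM of Xist.

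For none of the 9 lncRNA genes was a difference between Pon2-/- and WT HSCs detected. With edgeR's quasi-likelihood test 0 of 9 were called (adjusted p below 0.05 and more than 2-fold), beside 0.203% of the 11848 genes tested, and 0 of 9 had an unadjusted p below 0.05, beside 3.13% of genes. DESeq2 and limma voom also called 0. Every adjusted p of edgeR was 0.9999, and the smallest adjusted p of a member over all alternative fits was 0.591. The genotypes overlapped in CPM for all 9 members, whereas 0.633% of genes did not overlap. The exact permutation test of log2 CPM gave 0 of 9 members a p below 0.05, beside 5.87% of genes. The log2 fold change was positive for 4 members and negative for 5, with a median of -0.038 over the members and -0.0092 over all genes tested. In bulk samples, fewer cells of a type and less RNA per cell cannot be told apart.

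How large a difference could have gone unseen varied among the members. The 95% interval of the fold change lay inside 2-fold in both directions for 4 members, Malat1 (0.825 to 1.24), Gas5 (0.814 to 1.15), Kcnq1ot1 (0.655 to 1.29) and Snhg8 (0.571 to 1.37). For the other 5 it reached beyond 2-fold on at least 1 side, furthest for Snhg12 (0.189 to 5.63). A change of 2-fold or more was thus outside the interval for the 3 members with the most counts, and not for Neat1, whose interval ran from 0.826 to 2.51.

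**Figure D1:**
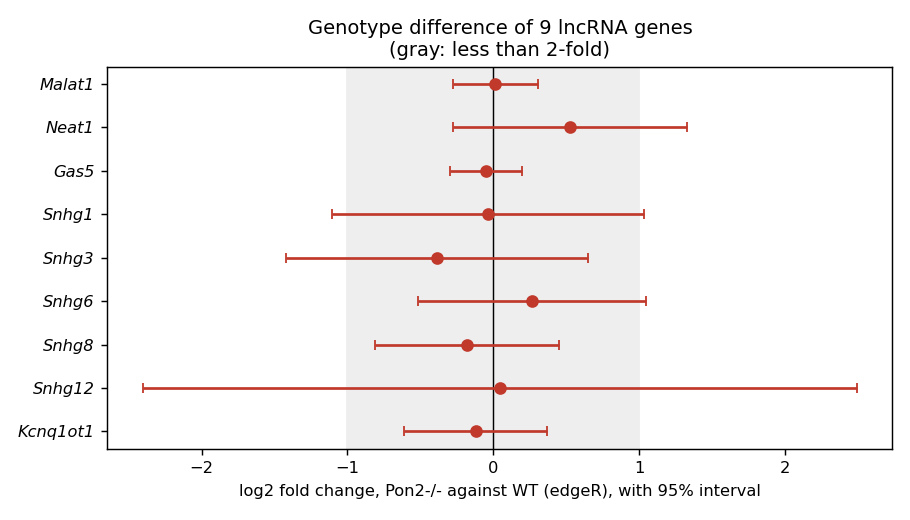
Log2 fold change of Pon2-/- against WT HSCs (x axis) for each lncRNA gene (y axis), with points for the edgeR estimate from 6 mice per genotype and bars for the 95% interval. All 9 bars cross 0, and those of Malat1, Gas5, Snhg8 and Kcnq1ot1 stay within the gray zone of less than 2-fold.

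Malat1 (ENSMUSG00000092341.2, chr19:5795690-5802672, - strand, 1 exon in the merged annotation) ranked 10 among all genes by mean CPM and 1 among 610 tested lncRNA genes. WT samples lay between 3524 and 5404 CPM with a median of 4089, and Pon2-/- samples between 3827 and 5446 CPM with a median of 4104. The 2 groups covered nearly the same range. The log2 fold change was 0.016 ± 0.14 (SE, n = 6 and 6, exact permutation p = 0.844), and it was -0.0048 when library totals replaced TMM.

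Neat1 (ENSMUSG00000092274.2, chr19:5824708-5845478, - strand) showed the largest positive difference of the 9 genes. It had 23.9 to 111 CPM in WT (median 53.1) and 41.4 to 111 CPM in Pon2-/- (median 80.3). Of the Pon2-/- samples, 5 of 6 lay above the WT median, but WT replicate 6 was as high as the highest Pon2-/- sample. The log2 fold change was 0.53 ± 0.37 (SE, edgeR p = 0.181, exact permutation p = 0.123), and it was 0.83 without WT replicate 6 (unadjusted p = 0.0344, adjusted p = 0.9999). Neat1 averaged 69.0 CPM in WT and 93.5 CPM in Pon2-/- in the 7 samples with more than 1 CPM on Y-linked genes, and 43.7 CPM and 56.4 CPM in the other 5. With the Y-linked level as a covariate the log2 fold change was 0.41 (edgeR adjusted p = 1.00). The part of the unlabelled difference in the level of Neat1 was not tested otherwise.

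Gas5 (ENSMUSG00000053332.13, chr1:161034422-161038539, + strand) is named for its rise in growth-arrested cells, and its spliced RNA can bind the glucocorticoid receptor. It ranked 79 among all genes and 3 among tested lncRNA genes, with 783 to 984 CPM in WT (median 882) and 683 to 968 CPM in Pon2-/- (median 888). This was the narrowest spread of the 9 members, 1.44-fold between the highest and the lowest of the 12 samples. The log2 fold change was -0.049 ± 0.12 (SE, exact permutation p = 0.582).

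Among the Snhg genes, Snhg8 and Snhg6 had the higher levels. Snhg8 (ENSMUSG00000104960.1, chr3:123507552-123508404, - strand), which holds Snora24, had 58.5 to 89.5 CPM in WT (median 63.3) and 32.8 to 98.6 CPM in Pon2-/- (median 54.4). The lowest 3 and the highest sample were Pon2-/-, so that the Pon2-/- range enclosed the WT range. Snhg6 (ENSMUSG00000098234.7, chr1:9941959-9944118, - strand), which shares 127 exonic bases with Mcmdc2 on the opposite strand, had 16.4 to 55.4 CPM in WT (median 33.99) and 28.2 to 55.3 CPM in Pon2-/- (median 42.5). As for Neat1, 5 of 6 Pon2-/- samples were above the WT median, and the highest samples of the genotypes were level (log2 fold change 0.27 ± 0.36 SE, exact permutation p = 0.284). Leaving out 1 mouse at a time moved this fold change between 0.12 and 0.44.

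Snhg1 (ENSMUSG00000108414.1, chr19:8723475-8726443, + strand) spread more in WT than in Pon2-/-. It had 9.24 to 39.96 CPM in WT (median 23.7) and 19.6 to 32.3 CPM in Pon2-/- (median 22.3), so that the WT range enclosed the Pon2-/- range. The difference of the spreads was not tested. Snhg12 (ENSMUSG00000086290.8, chr4:132308623-132311024, + strand) was the least even member, with 0.849 to 15.04 CPM in WT (median 10.4) and 0 to 23.9 CPM in Pon2-/- (median 5.43). Pon2-/- replicate 3 had 0 counts, where 3 counts, the most that a count of 0 allows, would be 0.171 CPM. Such floors cover counting error only, since PCR reads without molecular identifiers are not independent molecules. The log2 fold change of Snhg12 was 0.046 ± 1.14 (SE, exact permutation p = 0.634), and the difference of its mean log2 CPM was -0.73.

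Snhg3 (ENSMUSG00000085241.7, chr4:132348014-132353686, - strand) was not abundant in these counts. It had 0.212 to 1.64 CPM in WT and 0.421 to 1.21 CPM in Pon2-/-, 5 to 31 counts per sample, and it ranked 604 among 610 tested lncRNA genes. Of its 986 exonic bases, 86.3% are shared with exons of other genes: 705 with Gm17300 on the opposite strand, 159 with Snora73a and 135 with Rcc1, which overlaps it on the same strand. Only 135 bases remained in which a read could be assigned to Snhg3 alone. The other 8 members shared between 1.2% and 20.95% of their exonic bases.

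Kcnq1ot1 (ENSMUSG00000101609.1, chr7:143203458-143296549, - strand, 93092 bases in 1 exon) had 112 to 234 CPM in WT (median 181) and 93.8 to 235 CPM in Pon2-/- (median 170). The highest samples of the 2 genotypes were level, and WT replicate 1 and Pon2-/- replicate 3 were low. The log2 fold change was -0.12 ± 0.23 (SE, exact permutation p = 0.576), and it lay between -0.25 and -0.0054 when 1 mouse at a time was left out. Kcnq1, which runs through the same region on the opposite strand, had 185 counts over all samples, and Smart-seq2 reads carry no strand.

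**Figure D2:**
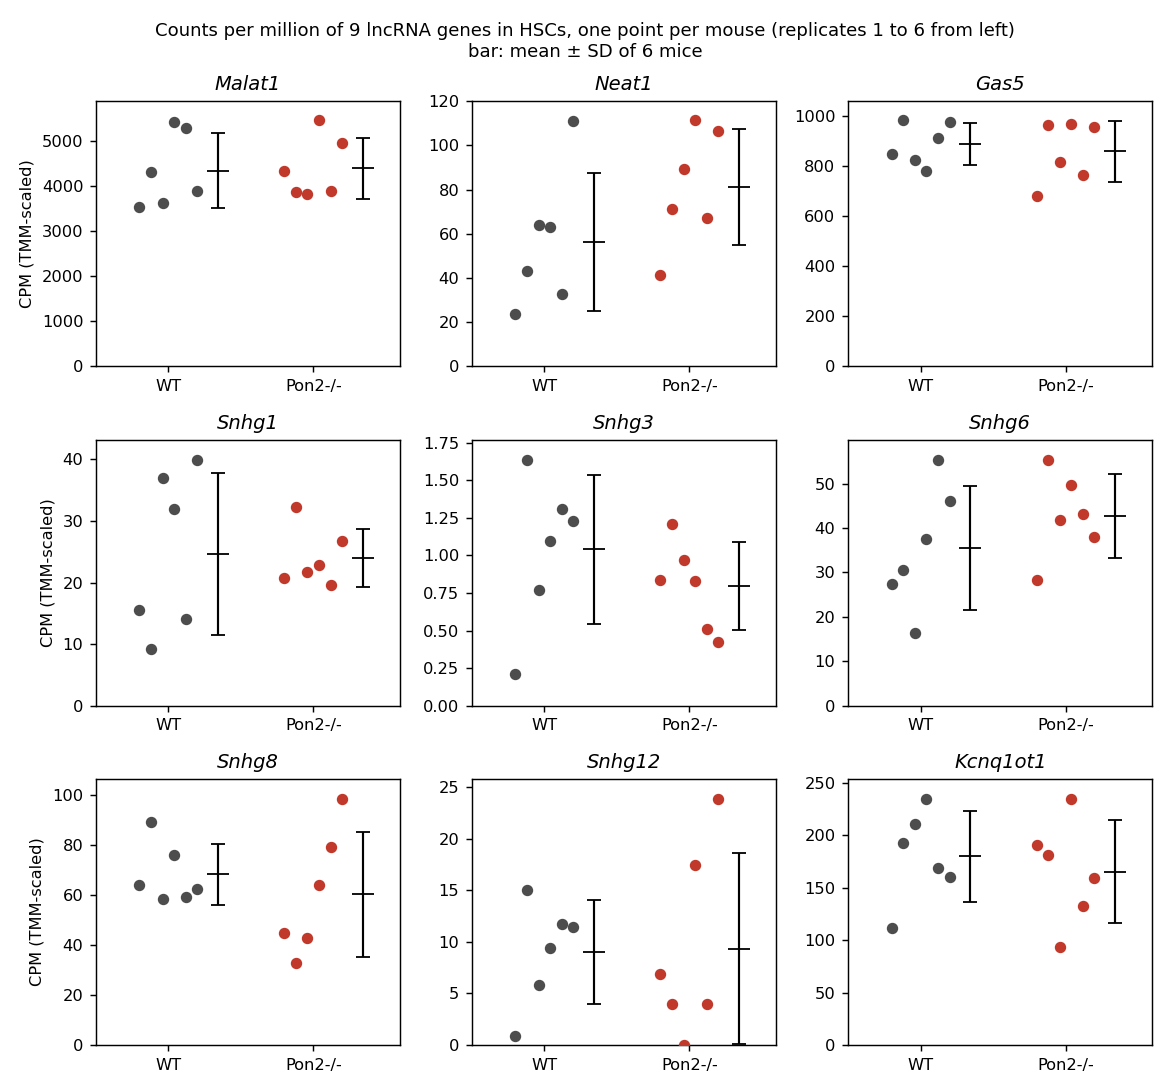
CPM of each lncRNA gene (y axis from 0, 1 panel per gene) in 6 WT and 6 Pon2-/- mice, with a point for each mouse and the mean ± SD beside them. The genotypes overlap in every panel, the points of Gas5 lie closest together and those of Snhg12 reach from 0 to 23.9 CPM.

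As a group the 9 lncRNA genes took 0.458% to 0.680% of all counts and 28.1% to 33.7% of the counts on lncRNA genes. Malat1 alone made up 73.3% to 81.4% of the members' counts. The summed level was 5601 ± 851 CPM in WT and 5628 ± 817 CPM in Pon2-/- (SD, n = 6 each), and without Malat1 it was 1264 ± 113 and 1244 ± 187 CPM. Of the other tested lncRNA genes, 26 lay above the members' median of 64.4 CPM. The highest of them were Gm26917 with a mean of 1217 CPM, Gm19590 with 569.9 CPM and BC018473 with 432 CPM, a mean that describes neither genotype, since BC018473 was at 0 CPM in WT and averaged 864 CPM in Pon2-/-.

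Levels of different genes can only be compared per length. Per kilobase of exonic sequence Malat1 stood first in WT with 621 ± 119 CPM per kb (SD, n = 6), Gas5 followed with 237 ± 22.1 CPM per kb, Snhg8 with 80.1 ± 14.3 and Snhg6 with 31.0 ± 12.1 CPM per kb. The ranges of these 4 genes did not overlap between neighbours in the order, nor did those of Snhg6 and Snhg1 (8.30 ± 4.45 CPM per kb). From Snhg1 downwards, through Snhg12 (3.76 ± 2.10), Neat1 (2.71 ± 1.51), Kcnq1ot1 (1.93 ± 0.46) and Snhg3 (1.06 ± 0.50 CPM per kb), each gene's range overlapped that of the next. In Pon2-/- the first 5 kept this order, but the ranges of Snhg8 and Snhg6 overlapped, and Neat1 (3.91 ± 1.27) and Snhg12 (3.89 ± 3.85 CPM per kb) changed places within their spread. Over the 135 bases of Snhg3 that no other gene shares, its WT level was 7.71 ± 3.67 CPM per kb, which placed it 6 in the order instead of 9. Exon lengths are those of GENCODE M21, while the counts were made on release M12.

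**Figure D3:**
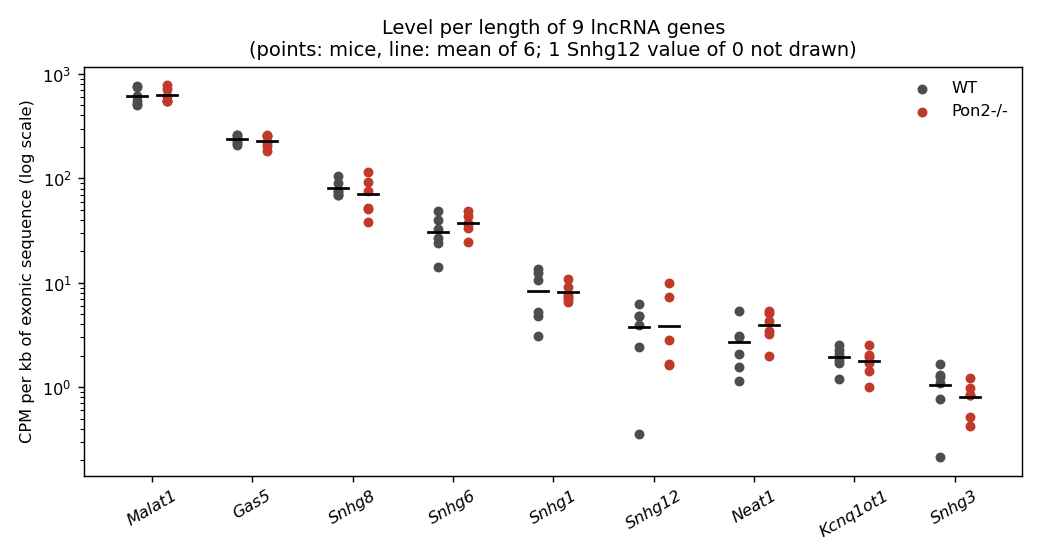
CPM per kilobase of exonic sequence (log scale) of the 9 lncRNA genes, ordered by the WT mean, with a point per mouse, gray for WT and red for Pon2-/-, and a line for the mean of 6. Malat1 and Gas5 stand clear of the rest, and from Snhg1 to Snhg3 the points of neighbours overlap.

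The coefficient of variation within genotypes was 11.97% for Gas5, 17.4% for Malat1, 26.9% for Kcnq1ot1, 31.7% for Snhg6, 31.9% for Snhg8, 40.4% for Snhg1, 42.5% for Snhg3, 45.5% for Neat1 and 80.3% for Snhg12. For 7 of the 9 it was below the median of the genes in the same bin (10 bins of tested genes by mean CPM). The highest bin held Malat1, Gas5 and Kcnq1ot1, with means of 4360, 875 and 173 CPM, so that levels within it were not alike. Neat1 (median of its bin 41.7%) and Kcnq1ot1 (23.3%) were above. Over all 610 tested lncRNA genes the median coefficient was 95.9%, against 56.7% over all tested genes. These 2 medians are not matched by level. The tested lncRNA genes other than the members had a median of 6.53 CPM. In the bin of Snhg12, which averaged 9.19 CPM, the median coefficient of all tested genes was 114%.

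Partner genes of the members were described through 10 lists with 120 genes in the files, of which 105 were tested. By edgeR none was called, and 1 of 105 had an unadjusted p below 0.05, beside 3.13% of all genes. By the exact permutation test of log2 CPM 9 of 105 (8.57%) had a p below 0.05, beside 5.87% of all genes, and those 9 are named with their lists, the others than Clk1 after their values had been seen. The gene found by both tests was Clk1, a kinase that phosphorylates splicing factors of nuclear speckles, with 529 ± 99.1 CPM in WT and 677 ± 72.6 CPM in Pon2-/- (log2 fold change 0.36 ± 0.14 SE, edgeR adjusted p = 0.9999, exact permutation p = 0.013). The median log2 fold change was -0.031 over the 13 nuclear speckle genes. Srsf7 and Clk1 had the highest levels in that list, and Srsf7, a splicing factor, averaged 1199 CPM in WT and 1271 CPM in Pon2-/-.

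For the 12 paraspeckle genes the median log2 fold change was 0.0036. By edgeR 0 of 12 had a p below 0.05, and by the exact permutation test 2 had, Rbm14 (28.8 ± 3.58 CPM in WT, 44.2 ± 13.8 in Pon2-/-, p = 0.0325) and Nudt21 (23.7 ± 2.20 and 30.6 ± 6.84 CPM, p = 0.0195), a subunit of a factor that sets the 3′ end of RNAs. The highest were Hnrnpk (966 ± 243 CPM in WT, 1035 ± 224 in Pon2-/-), which steers the choice of the Neat1 isoform, and Rbmx (267 ± 39.7 and 255 ± 54.5 CPM). Nono, a core protein of the paraspeckle, had 231 ± 51.0 and 194 ± 34.9 CPM.

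In the lists for the snoRNA hosts, 0 of 12 nonsense-mediated decay genes, 0 of 10 snoRNP protein genes and 0 of 12 translation genes with a 5′ TOP motif had a p below 0.05 by edgeR. By the exact permutation test 1 had, Casc3, a protein of the exon junction complex, with 27.5 ± 19.4 CPM in WT and 10.4 ± 11.3 CPM in Pon2-/- (p = 0.0476). The median log2 fold changes of the 3 lists were -0.015, 0.10 and 0.030. Eif4a3, a core of the exon junction complex, averaged 336 CPM in the WT and 329 CPM in the Pon2-/- samples, and Smg1, the kinase of the decay factor Upf1, followed with 124 and 90.4 CPM by mean over all samples. Nop56, a core protein of C/D box snoRNPs, had 433 and 453 CPM, and Nop10, of the H/ACA class, 406 and 377 CPM. Eef1a1, which brings aminoacyl-tRNA to the ribosome, had 3090 and 3141 CPM, and the ribosomal protein Rack1 1103 and 1147 CPM. Of the 11 other snoRNA hosts in the files 8 were tested, with a median log2 fold change of 0.085 and 0 genes at p below 0.05 by either test. Snhg20 had 201 and 220 CPM, and Zfas1 82.1 and 98.0 CPM.

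Among the 9 tested genes of the Kcnq1 domain, 0 had a p below 0.05 by edgeR and the median log2 fold change was -0.079. By the exact permutation test 2 had, Cdkn1c with 14.4 ± 4.85 CPM in WT and 7.92 ± 2.75 CPM in Pon2-/- (p = 0.0216, edgeR log2 fold change -0.86) and Cd81 (p = 0.0346, edgeR log2 fold change -0.22). Both ranges overlapped between the genotypes. The cell surface proteins Cd81 (648 ± 87.0 and 556 ± 34.1 CPM) and Tspan32 (549 ± 148 and 572 ± 58.1 CPM) had the highest levels. The 7 tested glucocorticoid response genes had a median log2 fold change of -0.24 and 0 with a p below 0.05 by edgeR. By the exact permutation test 1 had, the transcription factor gene Klf9 with 19.7 ± 12.3 CPM in WT and 7.13 ± 7.04 CPM in Pon2-/- (p = 0.0303). The highest were Tsc22d3 at 583 ± 215 and 472 ± 69.2 CPM and Per1 at 93.0 ± 41.3 and 78.7 ± 32.6 CPM. The 11 tested genomic neighbours had a median log2 fold change of 0.053 and 0 with a p below 0.05 by either test. Slc3a2, beside Snhg1, had 222 and 284 CPM, and Trnau1ap 127 and 118 CPM. The 11 tested lncRNAs of the remaining list had a median log2 fold change of 0.047 and 0 with a p below 0.05 by edgeR. By the exact permutation test 2 had, Firre (33.7 ± 18.0 CPM in WT, 67.5 ± 8.64 in Pon2-/-, p = 0.0022) and Jpx (31.6 ± 8.36 and 18.6 ± 14.2 CPM, p = 0.0368), both X-linked. Of these 11 lncRNAs 1, Firre, did not overlap between the genotypes, beside 0.633% of all genes. Xist and Dleu2 were the highest, Dleu2 with 52.8 ± 27.5 and 54.5 ± 16.4 CPM.

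Covariation was examined over the 12 mice after removal of the genotype means from log2 CPM. Of the 36 pairs of members, 0 had an adjusted p below 0.05 by Pearson's r or Spearman's rho (permutation tests with 100000 resamples within genotypes, two-sided, Benjamini-Hochberg over the 36 pairs). The highest r was between Snhg12 and Kcnq1ot1 (r = 0.79, permutation p = 0.0095, adjusted p = 0.342, rho = 0.42, permutation p = 0.208, adjusted p = 0.702), and it fell to 0.19 without the 2 samples farthest from the median of Snhg12. The relation therefore rested on those samples. The highest rho was between Malat1 and Snhg12 (rho = 0.80, permutation p = 0.00276, adjusted p = 0.0994, r = 0.60, permutation p = 0.0272, adjusted p = 0.490), and r was 0.59 without the 2 farthest samples. Malat1 and Neat1, neighbours on chromosome 19, gave r = 0.15. Snhg3 and Snhg12, neighbours on chromosome 4, gave r = 0.21. All values share the depth and the composition of their library.

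**Figure D4:**
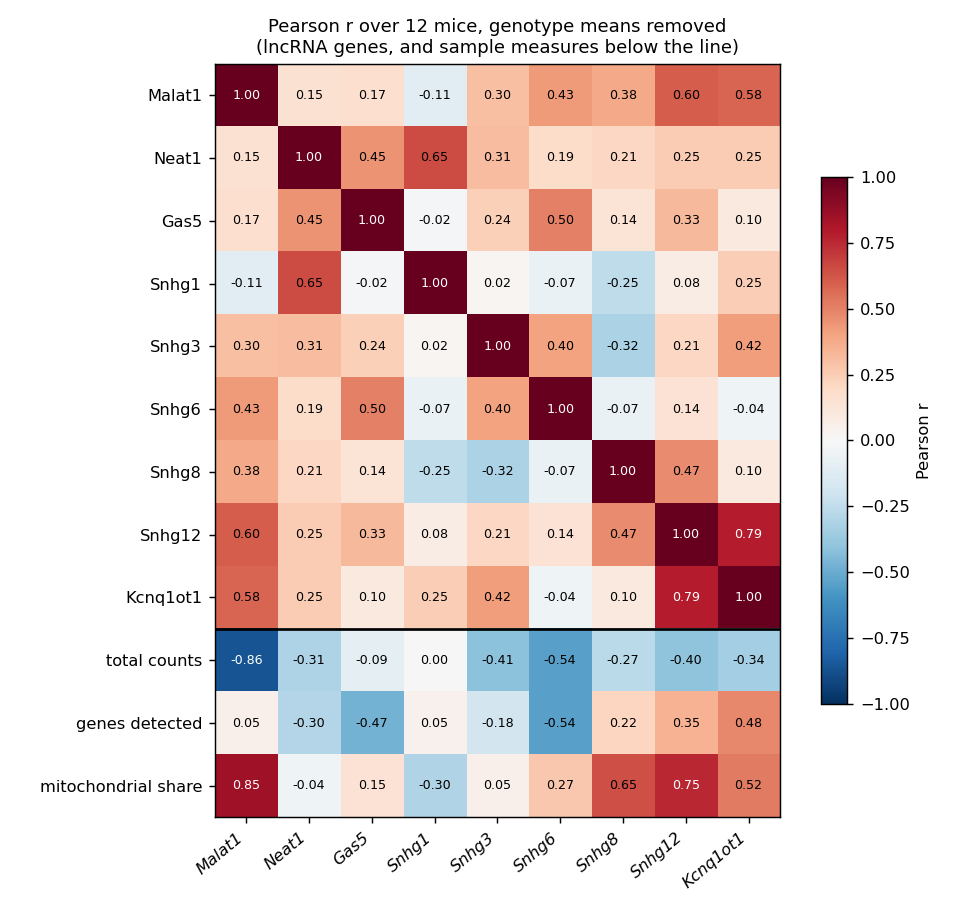
Pearson r over 12 mice, with genotype means removed, between the log2 CPM of the lncRNA genes (upper 9 rows and all columns) and with 3 measures of each library (rows below the line). Red stands for positive and blue for negative values. The pairs of members range from -0.32 to 0.79, and the column of Malat1 holds -0.86 for total counts and 0.85 for the mitochondrial share.

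Malat1 moved with properties of the library. Relations of the 9 members with 3 library measures (total counts, genes detected, share of mitochondrial counts) were computed, 27 in all, after the values had been seen. Malat1 CPM was higher where the mitochondrial share was higher (r = 0.85, permutation p = 0.00153, adjusted p = 0.0259, rho = 0.87, permutation p = 0.00057, adjusted p = 0.015) and where total counts were lower (r = -0.86, permutation p = 0.00192, adjusted p = 0.0259, rho = -0.88, permutation p = 0.00111, adjusted p = 0.015). Without the 2 samples farthest from the median of the measure r was 0.87 and -0.82. Within WT r was 0.88 and -0.88, and within Pon2-/- 0.84 and -0.84, with 6 mice each. Among all tested genes outside the mitochondrial genome, 0.203% had an r with the mitochondrial share as high, and 0.118% had an r with total counts as low. Malat1 counts ranged 1.42-fold (63233 to 89817) while total counts ranged 1.87-fold. The mitochondrial share and the total counts come from the same libraries and were not separated, so these relations are not 2 independent results.

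Snhg12 also moved with the mitochondrial share (r = 0.75, permutation p = 0.00507, adjusted p = 0.0456, rho = 0.82, permutation p = 0.00422, adjusted p = 0.038), with r = 0.46 within WT and 0.92 within Pon2-/-. Without the 2 farthest samples r was 0.68. No other relation of the 27 had an adjusted p below 0.05. The mitochondrial share was 6.94% ± 1.45 in WT and 7.53% ± 1.66 in Pon2-/- (SD, n = 6 each) and overlapped between genotypes. When CPM was taken over nuclear-encoded counts only, r of Malat1 with the mitochondrial share was 0.87 and with total counts -0.86. The part of the library measures in the members' values was not tested further.

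**Figure D5:**
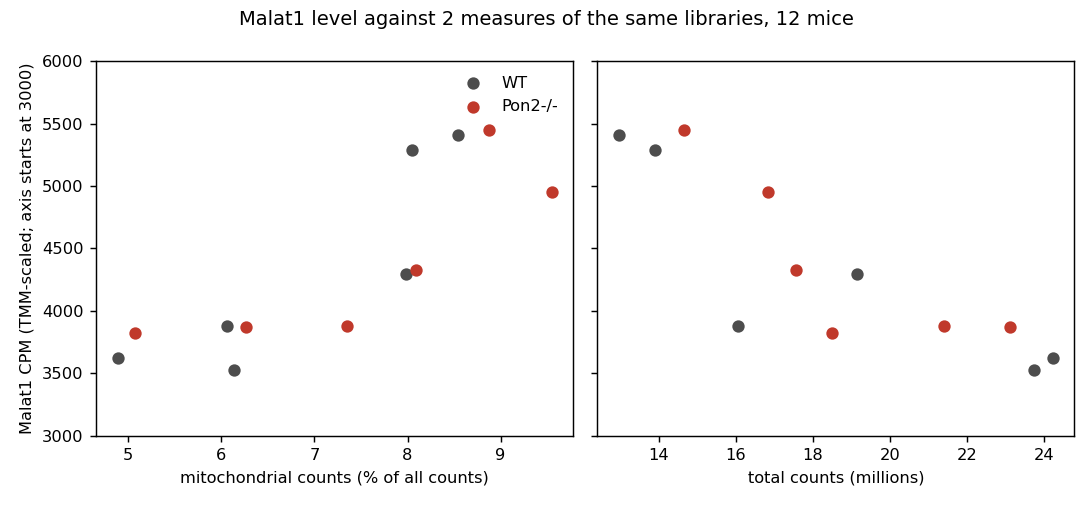
Malat1 CPM (y axis, not starting at 0) against the share of mitochondrial counts in percent (left) and total counts (right), with a point for each of 6 WT (gray) and 6 Pon2-/- (red) mice. Malat1 rises with the mitochondrial share and falls with total counts in both genotypes.

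The genes whose pattern over the 12 mice was most like that of 3 members were listed by r of genotype-centred log2 CPM among all 11848 tested genes, as a description. For Malat1 they were Shprh (r = 0.92), the pseudogene Gm15536 (r = 0.92) and the lncRNA Gm26917 (r = 0.88). Of the mitochondrial genes the ribosomal RNAs mt-Rnr1 (r = 0.87) and mt-Rnr2 (r = 0.84) were highest. The mRNAs were lower and spread widely, with mt-Nd1 (r = 0.77) and mt-Nd6 (r = 0.71) above mt-Cytb (r = 0.52) and mt-Co1 (r = 0.50). The tRNAs spread too, with r = 0.56 for mt-Te and r = -0.26 for mt-Tf. For Neat1 they were Cog2 (r = 0.91), Zfp710 (r = 0.91) and Ppargc1b (r = 0.89). For Gas5 they were Mier2 (r = 0.88), Snw1 (r = 0.85) and Nab1 (r = 0.84). Each is the upper end of the values of 11848 genes over 12 samples.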

How the data were processed

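The values deposited by the authors are raw counts of reads per gene, 1 table per mouse. Per the labels and the study's methods, Smart-seq2 reads were trimmed (Trimmomatic 0.36), aligned to GRCm38.p5 (STAR 2.5.3a) and counted on GENCODE M12 genes. How the 8 wells of a mouse became 1 table and which STAR column was kept are not given in the sources used here. The column was taken as unstranded. This counter leaves out reads on exons shared by genes, which lowers overlapping genes.

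Names, positions and lengths came from GENCODE M21 (49326 of 49585 genes matched). edgeR 4.0.16 (TMM, filterByExpr, quasi-likelihood test, genotype only) was fitted to all 12 samples, with Benjamini-Hochberg adjustment over 11848 tested genes. log2 CPM used a prior count of 2. Permutation tests are two-sided (scipy 1.17.1). Alternatives were DESeq2 1.42.0, limma 3.58.1 voom, other scalings and filters, a replicate block, a Y-linked covariate and leaving out each mouse. The scripts were tested on simulated data.

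The members and lists were chosen with earlier results of these data known. From each list the genes with an unadjusted p below 0.05 and the 2 highest by mean CPM were named, with genes that overlap a member, the 3 genes most like Malat1, Neat1 or Gas5 and the 3 highest other lncRNA genes. Further genes were chosen after their values were seen. Some genes of the lists are not reported here.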

Additional observations from a re-analysis of the deposited data

Results flagged for a closer look

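Pon2 was far lower in Pon2-/- replicate 5 (1.16 CPM) than in the other Pon2-/- samples, of which the lowest had 28.4 CPM. The gap was 0.853 of the group's range, above the value of 0.625 that Dixon's test sets for 6 samples. It was the only such sample among the groups examined for the members, Pon2, Xist and 3 library measures, and chance marks about 1 in 20 groups. In that sample the lncRNA genes lay inside the range of the other 5 Pon2-/- samples, except for Snhg1 with the lowest Pon2-/- value (19.6 CPM), and 0 of 9 were called without it.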

How the results depend on the processing

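The number of members called was 0 in all 22 alternatives, the number without overlap of the genotypes was 0 in all 14, and the number of correlated pairs was 0 in all 3. The number with an unadjusted p below 0.05 rose from 0 to 1 (Neat1) with a replicate block (log2 fold change 0.63, edgeR adjusted p = 1.00) and ranged from 0 to 1 without 1 replicate each. The labels do not say whether equal replicate numbers pair the mice, and the study calls its WT cells matched without saying how. The deviations of same-numbered mice correlated at 0.00093 to 0.043, and 0 of 6 pairs were above 0.1. Of the 12 samples, 3 correlated best with their own number. For Neat1 the SE of the log2 fold change was 0.37 in the main test and 0.25 with the block. Whether the mice were paired cannot be settled from these values. Over all genes the count of calls was 24 in the main test, 5 with the block, 8 without a filter, 304 with DESeq2 and 966 with DESeq2 without Cook's cutoff. List genes with an unadjusted p below 0.05 numbered 1 in the main test, 2 with library totals or the Y-linked covariate, 6 with DESeq2 (with or without Cook's cutoff) and voom, and 0 to 4 without 1 replicate each.

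The summed CPM differed by 26.9 (Pon2-/- minus WT) in the main scaling, by -52.9 with library totals and by -20.5 without Malat1, and by -231 to 235 without 1 replicate each. Of 197 alternative fits of single members 21 turned the sign and 0 passed an adjusted p of 0.05 (smallest 0.591). Malat1 turned to -0.0048 with library totals and to -0.018 with the Y-linked covariate, Snhg1 to 0.025 with voom and 0.12 with the block, and Snhg12 to -0.88 with voom, -0.52 with the block and -0.16 with the covariate. Without 1 replicate each, the log2 fold change ranged from -0.062 to 0.085 for Malat1, 0.37 to 0.83 for Neat1, -0.090 to 0.0075 for Gas5, -0.21 to 0.15 for Snhg1, -0.60 to -0.21 for Snhg3, 0.12 to 0.44 for Snhg6, -0.37 to -0.054 for Snhg8, -0.49 to 0.30 for Snhg12 and -0.25 to -0.0054 for Kcnq1ot1. The difference of mean log2 CPM over all 12 samples had the sign of the edgeR estimate except for Snhg1 (0.14) and Snhg12 (-0.73). In the 7 samples with more than 1 CPM on Y-linked genes, a set chosen after seeing the data, the sign of this difference turned for Malat1 (-0.10), Snhg1 (-0.22), Snhg6 (-0.087) and Snhg8 (0.054), and in the other 5 for Snhg3 (0.50), Snhg12 (0.27) and Kcnq1ot1 (0.17). Snhg3 was not tested under a minimum of 10 reads. The causes were not tested.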

Other observations

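The other lncRNA genes gave several clearer differences, all chosen here after their values were seen. BC018473, an antisense lncRNA on chromosome 11, had 0 counts in all 6 WT samples and 397 to 1072 CPM in Pon2-/- (edgeR adjusted p = 1.40e-06). Its Pon2-/- mean was 3680 times the highest WT floor of 3 counts per library (0.235 CPM), which covers counting error only. BC018473 was 1 of 4 called among 610 tested lncRNA genes, beside 0.203% of all genes tested. The others called were Gm26862 (0 CPM in WT, 1.02 to 5.62 CPM in Pon2-/-), Gm26896 (2.39 to 5.24 CPM in WT, 0 in Pon2-/-) and Gm43305 (2.10 to 17.4 CPM in WT, at most 0.0569 CPM in Pon2-/-). An edgeR unadjusted p below 0.05 was found for 2.13% of the tested lncRNA genes, beside 3.13% of all genes.

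Imprinted lncRNAs that are known from quiescent HSCs were low. Meg3 had counts in 6 of 6 WT samples (0.0807 to 3.44 CPM, 186 counts) and 0 in all Pon2-/- samples. Its WT mean was 8.57 times the highest Pon2-/- floor of 3 counts per library (0.208 CPM), which covers counting error only. WT replicate 3, with 0.0807 CPM, lay below that floor. H19 had 442 counts in 4 of 6 WT samples and 19 counts in 1 of 6 Pon2-/- samples. Both fell below the filter, and without it edgeR gave an adjusted p of 0.281 for Meg3 and 0.385 for H19. Firre, an X-linked nuclear lncRNA, had 0.871 to 53.6 CPM in WT and 58.3 to 83.5 CPM in Pon2-/- without overlap (log2 fold change 1.00 ± 0.58 SE, edgeR adjusted p = 0.9999).

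Cd48 is a surface protein of multipotent progenitors that is absent from LT-HSCs. The gate did not select on CD48, so that it did not exclude the MPP2 progenitors that the study's methods describe. Of the 8 tested genes in the list of gated-out or other cells 1, Cd48, had an edgeR unadjusted p below 0.05, beside 3.13% of all genes. Cd48 had 1.02 to 72.1 CPM in WT and 61.3 to 205 CPM in Pon2-/- (log2 fold change 1.68 ± 0.62 SE, edgeR adjusted p = 0.9999). Pf4, a platelet factor, had the next highest mean of that list, 58.2 CPM in WT and 67.3 CPM in Pon2-/-.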
